A study of Zea mays with 18 samples.

Results

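The roots of *zmnlp3.1* and *zmnrt1.1b* maize seedlings under N starvation were compared directly with each other, without reference to WT. The comparison takes the 6 libraries of both mutants that received KCl, 3 per mutant (replicates 1, 3 and 4 of *zmnlp3.1* and 2, 3 and 4 of *zmnrt1.1b*), of 18 root libraries in the series. The mutants were made by CRISPR/Cas9 in the inbred line ND101, *zmnrt1.1b* in ZmNRT1.1B and *zmnlp3.1* in ZmNLP3.1. After 10 days on complete nutrient solution the seedlings were starved of N for 4 days, and 5 mM KCl was then given for 2 h, so that no NO3- was resupplied. The same design with 5 mM KNO3 for 2 h gave 6 further libraries of the mutants (replicates 2, 3 and 4 of *zmnlp3.1* and 2, 4 and 5 of *zmnrt1.1b*), which are used here as separate samples, and WT had 3 libraries per treatment. Both mutants are named knockdowns in the sample labels and loss-of-function mutants in the study's text, and which line of each was sequenced is not given in the sources used here. A difference that belongs to a single edited line therefore cannot be told apart from one that belongs to the mutated gene.

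NRT1.1 proteins are NO3- transporters of the plasma membrane which, in Arabidopsis, also act as NO3- sensors. NIN-like proteins (NLPs) are transcription factors that bind NO3--responsive promoters, and in Arabidopsis NO3- keeps them in the nucleus. Both act in the primary NO3- response, the rapid change of transcript levels when NO3- reaches a starved root, and the seedlings compared here had been starved of N and were given none.

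The edit in *zmnlp3.1* was directed by 2 guides to the second exon of the gene. They are shown because they mark where the edit was directed, and they do not give the mutation that the sequenced line carries. They were read as the stretches shared by overlapping primers in the study's primer list, in lower case and 5′ to 3′, so a base at either end of a guide can be missing.
guide 1: gcaatacacgactgagcaga
guide 2: tctgcaaagcacttgaggt
The deposited gene IDs are not paired with the study's gene names in the tables used here, so the edited genes themselves could not be checked by ID, and no promoter or protein sequence was at hand for them.

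The authors deposited FPKM values, the fragments on each gene scaled by its length and by library size. Reads recovered from these values numbered 17543783 to 18139319 in the *zmnlp3.1* libraries and 16955904 to 17859459 in the *zmnrt1.1b* libraries. The *zmnlp3.1* libraries spread more than the *zmnrt1.1b* libraries, with a median SD of 0.201 against 0.149 on the log2 scale. Replicate 4 of *zmnlp3.1* stood apart from its group: across genes it correlated with replicates 1 and 3 at 0.940 and 0.948, whereas these correlated with each other at 0.973 and the *zmnrt1.1b* libraries at 0.974 to 0.979. Markers matched root: the summed level of 63 root marker genes was 2533 to 3418 FPKM in *zmnlp3.1* and 3432 to 4058 FPKM in *zmnrt1.1b*, and that of 86 photosynthesis genes, which mark green tissue, was 31.9 to 48.2 FPKM and 58.8 to 63.2 FPKM, with 26 of the 86 at 0 in all 6 libraries. In bulk roots, fewer cells of a type and less RNA per cell cannot be told apart.

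Of 24124 genes tested, 666 (2.76%) differed between the mutants at an adjusted p below 0.05 and an absolute log2 difference above 1, the rule for every gene named as called below. Differences are *zmnlp3.1* minus *zmnrt1.1b* on the log2(FPKM + 0.1) scale, which understates the change of weakly expressed genes. The larger share was higher in *zmnrt1.1b*, with 538 genes (2.23%) against 128 (0.531%) higher in *zmnlp3.1*. The median difference of all genes was −0.0019. Most differences were moderate: the median was −1.32 (quartiles −1.72 and −1.15) for genes higher in *zmnrt1.1b* and 1.51 (quartiles 1.19 and 2.33) for those higher in *zmnlp3.1*, and 79 and 42 of them exceeded an absolute log2 difference of 2. In all 666 the libraries of the mutants did not overlap, as was also the case for 34.9% of all genes tested.

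The number of calls depended on single libraries. Without *zmnrt1.1b* replicate 2, the counts were 23 genes higher in *zmnlp3.1* and 38 higher in *zmnrt1.1b*, and without its replicate 3 they were 29 and 64. Without *zmnrt1.1b* replicate 4 they were 53 and 271, and without *zmnlp3.1* replicate 3 they were 35 and 182. Without *zmnlp3.1* replicate 1 they were 198 and 764, and without the replicate that stood apart, *zmnlp3.1* replicate 4, they were 145 and 644. All 666 genes kept their direction and an unadjusted p below 0.05 in each of these 6 fits. That was largely set in advance, as the genes were called on the same libraries. The call itself was kept in all 6 fits by 51 genes. Any other called gene named below lost its call in at least 1 of these fits.

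**Figure D1:**
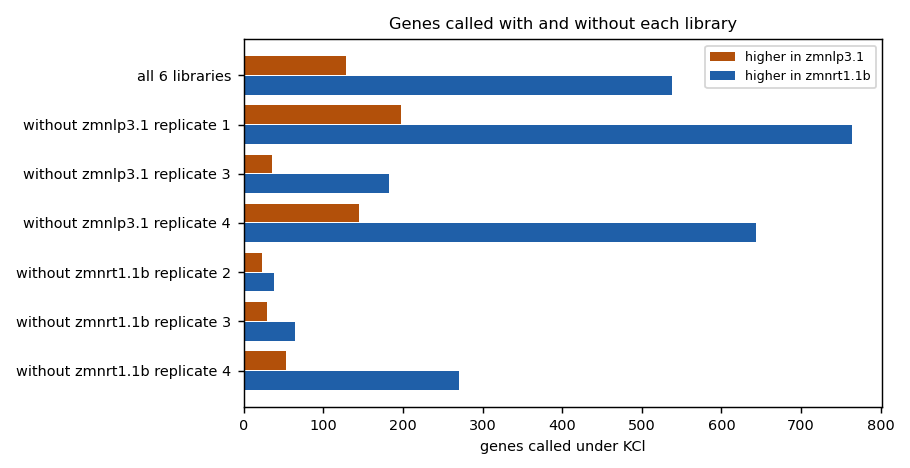
Number of genes called under KCl (horizontal axis) with all 6 libraries and with each library left out, higher in *zmnlp3.1* (orange) or in *zmnrt1.1b* (blue). The counts range from 23 to 198 and from 38 to 764, and more genes were higher in *zmnrt1.1b* in each fit.

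The mutated families were examined first, by the protein description that the table pairs with each ID. One of 3 tested genes described as NRT1/PTR family 6.3, the family of NRT1.1, differed. Zm00001d029932 (chromosome 1, bases 94940936 to 94945167 of B73 RefGen_v4) had 73.01, 48.6 and 31.2 FPKM in *zmnlp3.1* and 148, 147 and 125 FPKM in *zmnrt1.1b*. Every *zmnrt1.1b* library was above every *zmnlp3.1* library (log2 difference −1.54 ± 0.28 (SE), adjusted p = 0.0302). Under KCl the WT libraries, at 63.7, 52.6 and 71.1 FPKM, lay with *zmnlp3.1*. In the KNO3 libraries it had 77.04, 70.9 and 57.8 FPKM in *zmnlp3.1* and 231, 122 and 167 FPKM in *zmnrt1.1b*. That difference was again called (log2 difference −1.30, limma adjusted p = 0.0212), but there the WT libraries, at 171, 198 and 179 FPKM, lay with *zmnrt1.1b*. The most abundant member, Zm00001d024587 on chromosome 10, had 163, 146 and 107 FPKM and 199.6, 192 and 166 FPKM and was not called (log2 difference −0.44 ± 0.18 (SE), adjusted p = 0.163). Zm00001d027285 had 1.26, 1.44 and 2.37 FPKM and 1.16, 1.02 and 1.43 FPKM and was not called. Transcript level does not show whether an edited protein is made, and 2 of the maize NRT1.1 genes are neighbours on chromosome 1, so reads may also be shared between close copies.

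None of the 9 tested NLP genes was called, and their absolute differences were at most 0.51. The nearest was Zm00001d009017 (chromosome 8, bases 30237363 to 30243290 of B73 RefGen_v4), described as NLP3. It had 10.4, 10.8 and 9.83 FPKM in *zmnlp3.1* against 13.6, 12.9 and 13.7 FPKM in *zmnrt1.1b*, without overlap, and its difference did not pass the test (log2 difference −0.37 ± 0.09 (SE), adjusted p = 0.06298). In the KNO3 libraries its difference was −0.54 (adjusted p = 0.0734). The second gene described as NLP3, Zm00001d039266, had 5.63, 6.58 and 6.83 FPKM and 6.37, 6.1004 and 6.12 FPKM, and these overlapped.

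Of 22 tested genes of NO3- uptake and assimilation 1 was called in each direction before NO3- supply, 15 differences were below 0, and the median was −0.31. Over all genes tested 2.23% were called towards *zmnrt1.1b* and 0.531% towards *zmnlp3.1*. The abundant members were the partner protein of high-affinity transporters Zm00001d017095 (NAR2.1 type), 2 NRT2.1 genes and nitrite reductase. Zm00001d017095 had 1437, 1179.7 and 407 FPKM in *zmnlp3.1* and 1310.4, 1062 and 1025 FPKM in *zmnrt1.1b* (log2 difference −0.35 ± 0.45 (SE), adjusted p = 0.647). The low value belonged to *zmnlp3.1* replicate 4, the library that stood apart, and without it the difference was 0.21. The same library was lowest for gene_Zm00001d054060, one of the NRT2.1 genes, with 275, 219 and 36.1 FPKM against 238, 216 and 200.1 FPKM, for nitrite reductase Zm00001d018161, with 202, 164 and 59.5 FPKM against 210.2, 171 and 152 FPKM, and for the NRT2.3 gene Zm00001d011679. None of these was called, and without that library their differences were 0.18, 0.047 and 0.23. The 2 NRT2.1 genes lie close together on chromosome 4 and may share reads.

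Nitrate reductase, the first enzyme of assimilation, was chosen for display after its values were seen. The most abundant gene, Zm00001d018206, had 35.3, 36.6 and 19.4 FPKM in *zmnlp3.1* and 58.8, 58.1 and 50.98 FPKM in *zmnrt1.1b* and missed the threshold under KCl (log2 difference −0.93 ± 0.24 (SE), adjusted p = 0.0685). In the KNO3 libraries it had 148, 129.8 and 103 FPKM and 638, 417 and 423 FPKM, a called difference of −1.94 (adjusted p = 0.00502). The contrasts of the treatments were not shown to differ (adjusted p = 0.242).

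The called member that was higher in *zmnlp3.1*, Zm00001d040534 (chromosome 3, bases 48541454 to 48545929 of B73 RefGen_v4), is described as probable peptide/nitrate transporter At3g43790. It is in the list by that wording, and whether it carries NO3- was not tested. It had 17.3, 17.3 and 15.3 FPKM in *zmnlp3.1* and 3.83, 3.64 and 3.27 FPKM in *zmnrt1.1b*, with little spread (log2 difference 2.19 ± 0.11 (SE), adjusted p = 0.000611), and was called in every fit that left out a library. WT had 1.19, 0 and 0.0241 FPKM, below both mutants. In the KNO3 libraries the difference was 3.02 (adjusted p = 0.00731). There WT replicate 1 had 8.36 FPKM and the other WT libraries had 0.0248 and 0.025 FPKM, where *zmnrt1.1b* had 1.18, 4.23 and 1.79 FPKM. The cause of this spread in WT was not tested.

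Members of the NRT1/PTR family carry NO3-, peptides or hormones. Of its 48 tested genes 3 were higher in *zmnrt1.1b*, where 2.23% of all genes were, and none was higher in *zmnlp3.1*. Besides Zm00001d029932 these were NRT1/PTR 5.10 (gene_Zm00001d026695), at 15.7, 12.99 and 10.2 FPKM in *zmnlp3.1* and 36.4, 28.1 and 23.98 FPKM in *zmnrt1.1b*, and the weakly expressed NRT1/PTR 1.1 (Zm00001d043375), at under 1 FPKM in each *zmnlp3.1* library.

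Among genes of ammonium uptake and amide synthesis 2 of 28 tested were called, both higher in *zmnrt1.1b*, where 2.23% of all genes were. In 22 of the 28 the difference was below 0 (median −0.40). Ammonium transporter 1 member 1 (gene_Zm00001d025831) had 33.6, 21.5 and 16.4 FPKM in *zmnlp3.1* and 78.9, 81.05 and 70.001 FPKM in *zmnrt1.1b* (log2 difference −1.74 ± 0.24 (SE), adjusted p = 0.0166). Asparagine synthetase (gene_Zm00001d028750), which forms the amide used to store and move N, had 1.96, 2.54 and 1.08 FPKM and 9.32, 5.67 and 6.31 FPKM (log2 difference −1.92 ± 0.33 (SE), adjusted p = 0.0243). WT libraries were higher than both mutants for asparagine synthetase, at 12.6, 12.4 and 17.6 FPKM. In the KNO3 libraries the ammonium transporter kept a called difference of −1.37 (adjusted p = 0.0208), whereas that of asparagine synthetase was −0.55 (adjusted p = 0.221). The count of 2 became 0, 0 and 1 without *zmnrt1.1b* replicates 2, 3 and 4, and 4, 1 and 3 without *zmnlp3.1* replicates 1, 3 and 4.

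Cytokinins are hormones that report N status between root and shoot. Of 39 tested cytokinin genes 4 were higher in *zmnlp3.1*, where 0.531% of all genes were, and none in *zmnrt1.1b*. The response regulator ORR10 (Zm00001d023242), of a class that cytokinin induces, had 151, 162 and 206 FPKM in *zmnlp3.1* and 87.02, 59.4 and 72.9 FPKM in *zmnrt1.1b* (log2 difference 1.25 ± 0.18 (SE), adjusted p = 0.0175). Cytokinin dehydrogenases degrade the hormone. Cytokinin dehydrogenase 3 (gene_Zm00001d032664) had 13.1, 11.7 and 18.7 FPKM and 5.97, 5.52 and 5.998 FPKM (log2 difference 1.27 ± 0.18 (SE), adjusted p = 0.0165), and cytokinin dehydrogenase 5 (Zm00001d043293) had 6.27, 8.17 and 10.2 FPKM and 3.36, 1.72 and 4.01 FPKM (log2 difference 1.46 ± 0.32 (SE), adjusted p = 0.0469). Cytokinin hydroxylase (Zm00001d020418), which makes the trans-zeatin type, had 6.02, 5.79 and 8.49 FPKM and 2.69, 3.51 and 2.59 FPKM. The list's median was −0.05, and its count of 4 became 0 without any 1 of the *zmnrt1.1b* libraries and 1 without *zmnlp3.1* replicate 3. In the KNO3 libraries ORR10, cytokinin dehydrogenase 5 and the hydroxylase were again called higher in *zmnlp3.1*, by 1.12, 1.62 and 1.91. Cytokinin dehydrogenase 3 was not: its KNO3 difference was −0.57, and the contrasts of the treatments differed (adjusted p = 0.0338).

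**Figure D2:**
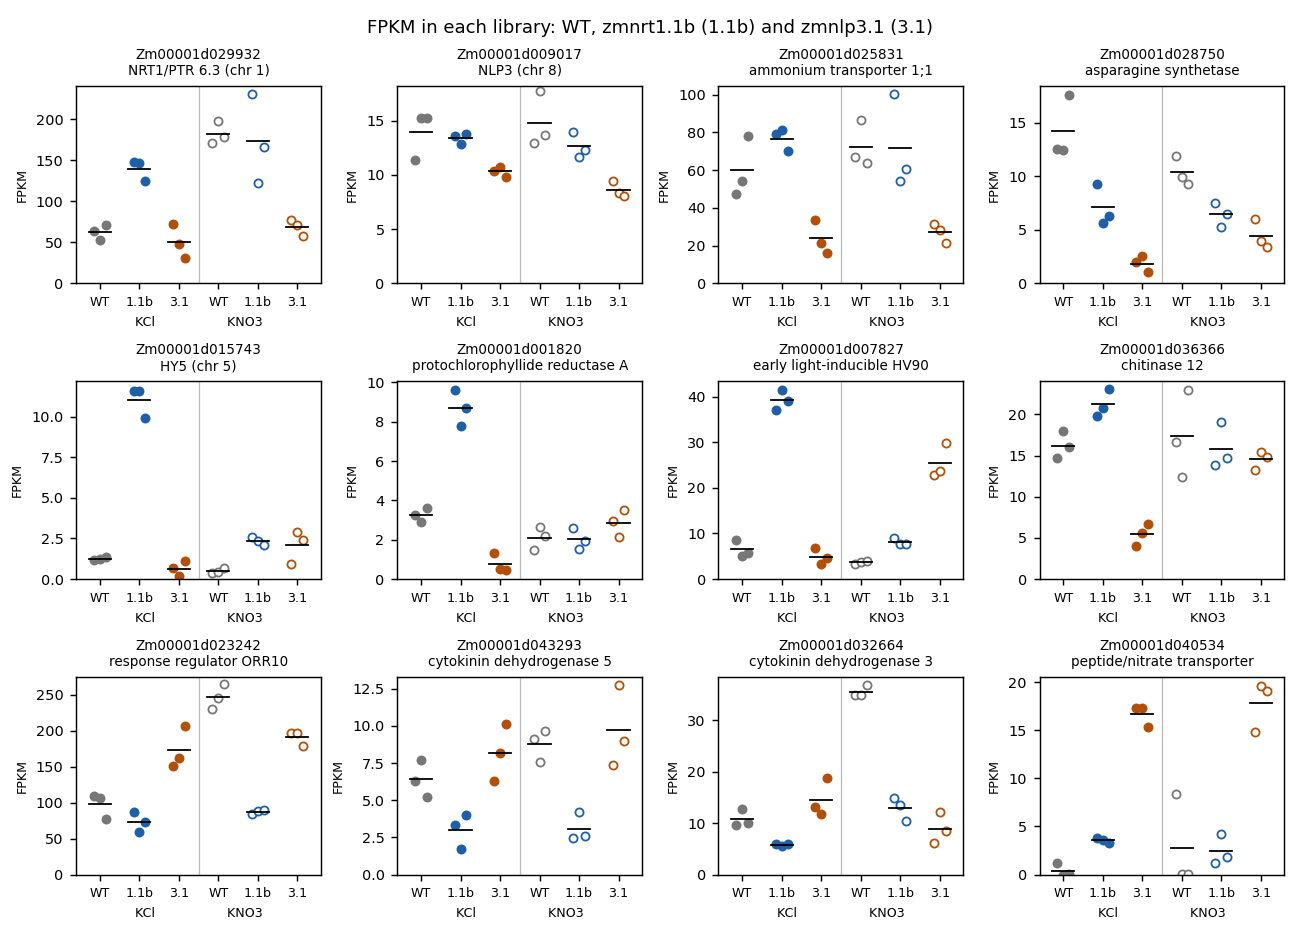
FPKM (vertical axes, from 0) of 12 genes in every library of WT (grey), *zmnrt1.1b* (blue) and *zmnlp3.1* (orange) under KCl (filled) and KNO3 (open), with the group mean as a line. Under KCl the *zmnrt1.1b* libraries lie above the *zmnlp3.1* libraries in the upper 2 rows and below them in the lowest row, and for HY5 (Zm00001d015743) and protochlorophyllide reductase A (Zm00001d001820) the mutants overlap or change places under KNO3.

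Among described genes that averaged 5 FPKM or more in the higher mutant, the 2 largest differences towards *zmnrt1.1b* were in light-responsive genes, although the tissue was root. HY5 is a bZIP factor that in Arabidopsis promotes light-responsive transcription. Zm00001d015743 (HY5, chromosome 5, bases 115451296 to 115456402 of B73 RefGen_v4) had 0.654, 0.197 and 1.08 FPKM in *zmnlp3.1* and 11.6, 11.6 and 9.94 FPKM in *zmnrt1.1b* (log2 difference −4.11 ± 0.46 (SE), adjusted p = 0.0101). WT had 1.16, 1.21 and 1.33 FPKM, near *zmnlp3.1*, so the *zmnrt1.1b* libraries were the ones set apart. Both other genes described as HY5 were also called, gene_Zm00001d008734 at −1.13 and Zm00001d039658 at −1.07. They were added after their values were seen.

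Protochlorophyllide reductases carry out the light-dependent step of chlorophyll synthesis. Reductase A (Zm00001d001820) had 1.32, 0.515 and 0.438 FPKM in *zmnlp3.1* and 9.603, 7.77 and 8.69 FPKM in *zmnrt1.1b* (log2 difference −3.49 ± 0.36 (SE), adjusted p = 0.00783), with WT between them at 3.25, 2.89 and 3.59 FPKM. Early light-inducible proteins bind pigments in stressed chloroplasts. The gene described as HV90 (Zm00001d007827) had 6.81, 3.18 and 4.64 FPKM and 37.1, 41.5 and 38.97 FPKM (log2 difference −3.05 ± 0.25 (SE), adjusted p = 0.00454), and was called in every fit that left out a library. Of 15 tested photosynthesis genes, 5 were higher in *zmnrt1.1b*, where 2.23% of all genes were, and none in *zmnlp3.1* (median −0.86). The 5 were weakly expressed: the LHCII gene gene_Zm00001d021784 had 1.91, 0.887 and 1.46 FPKM and 4.76, 5.33 and 4.995 FPKM, and gene_Zm00001d021435, another chlorophyll a-b binding protein, had 1.15, 2.81 and 1.99 FPKM and 5.72, 6.55 and 4.33 FPKM. Testing needed 1 FPKM in 3 of the 6 libraries, which 1 mutant alone can supply. Another of the 5, gene_Zm00001d039040, passed through *zmnrt1.1b* alone, at 0.394, 0.308 and 0.444 FPKM and 1.37, 1.81 and 1.96 FPKM. The count and the median are thus partly set by this minimum. The 5 calls became 0 without any 1 of the *zmnrt1.1b* libraries, 1 without *zmnlp3.1* replicate 3 and 7 without *zmnlp3.1* replicate 4. These genes include the green tissue markers, whose sum was 31.9 to 48.2 FPKM in *zmnlp3.1*, 58.8 to 63.2 FPKM in *zmnrt1.1b* and 49.3 to 51.8 FPKM in WT under KCl. The part of green tissue or of light in these differences was not tested.

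Several of these differences were absent or turned round in the KNO3 libraries. HY5 (Zm00001d015743) had 0.912, 2.88 and 2.41 FPKM in *zmnlp3.1* and 2.58, 2.35 and 2.07 FPKM in *zmnrt1.1b* with KNO3, and the contrasts of the treatments differed by −3.81 (adjusted p = 0.0292). For protochlorophyllide reductase A (Zm00001d001820) they differed by −3.99 (adjusted p = 0.00536). HV90 (Zm00001d007827) turned round, with 22.9, 23.7 and 29.8 FPKM in *zmnlp3.1* and 8.99, 7.66 and 7.72 FPKM in *zmnrt1.1b* under KNO3, a called difference of 1.63 (adjusted p = 0.002999). Protochlorophyllide reductase B (gene_Zm00001d013937), picked after its values were seen, was called under both, at −2.01 and −1.52. None of 12 photosynthesis genes tested under KNO3 was called by limma, with 3 higher in *zmnlp3.1* and 1 higher in *zmnrt1.1b* at an unadjusted p below 0.05.

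WRKY factors, many of which act in defence and senescence, were the list with the most calls. Of 91 tested, 17 (18.7%) were higher in *zmnrt1.1b* and 1 was higher in *zmnlp3.1*, against 2.23% and 0.531% of all genes. The difference was below 0 in 80 of the 91 (median −0.54). WRKY76 (gene_Zm00001d020492) had 1.53, 1.23 and 0.878 FPKM in *zmnlp3.1* and 4.44, 4.62 and 4.16 FPKM in *zmnrt1.1b* (log2 difference −1.81 ± 0.22 (SE), adjusted p = 0.01202). WRKY66 (Zm00001d043060) had 4.402, 3.404 and 4.99 FPKM and 10.8, 12.8 and 14.2 FPKM (log2 difference −1.55 ± 0.17 (SE), adjusted p = 0.00961). All 3 genes described as WRKY28 and 3 of 6 described as WRKY50 were among the 17, counts that were taken after their values were seen. The exception was WRKY62 (gene_Zm00001d010616), at 2.62, 2.13 and 3.61 FPKM in *zmnlp3.1* and 0.0942, 0.144 and 0.384 FPKM in *zmnrt1.1b*. The count of 17 became 21 and 18 without *zmnlp3.1* replicates 1 and 4, 6 without its replicate 3, and 0, 1 and 6 without *zmnrt1.1b* replicates 2, 3 and 4. Under KNO3 8 of 87 WRKY genes tested were higher in *zmnrt1.1b*, and the median was −0.44.

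NAC factors, a family with many regulators of senescence and secondary walls, had 7 of 82 genes higher in *zmnrt1.1b* and none higher in *zmnlp3.1* (median −0.35). NAC48 (gene_Zm00001d042609) had 20.1, 18.2 and 15.2 FPKM in *zmnlp3.1* and 48.97, 44.3 and 40.03 FPKM in *zmnrt1.1b* (log2 difference −1.32 ± 0.13 (SE), adjusted p = 0.00718). In NAC56 (gene_Zm00001d023294), with 7.397, 5.301 and 4.697 FPKM and 19.04, 12.3 and 15.2 FPKM, WT was above both mutants, at 22.3, 28.2 and 21.05 FPKM. By their descriptions 4 of 126 MYB genes, 4 of 77 bHLH genes and none of 38 bZIP genes were higher in *zmnrt1.1b*, where 2.23% of all genes were. By the table's own factor-family column, which counts genes that the descriptions miss, such as HY5, the numbers were 6 of 72 for HLH, 3 of 62 for bZIP and 8 of 88 for NAM, the NAC domain. One MYB gene, Zm00001d038527 (Myb-related protein 1), was higher in *zmnlp3.1*, at 7.83, 9.73 and 15.7 FPKM against 2.08, 1.88 and 3.27 FPKM.

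Several genes with known roles in defence were called higher in *zmnrt1.1b*. The aminotransferase ALD1 homolog (Zm00001d028165), which in Arabidopsis makes a precursor of the immune signal pipecolic acid, had 0.648, 0.4701 and 0.431 FPKM in *zmnlp3.1* and 6.66, 5.69 and 7.47 FPKM in *zmnrt1.1b* (log2 difference −3.45 ± 0.22 (SE), adjusted p = 0.00158). WT was below both mutants, at 0, 0.258 and 0.257 FPKM. The glucosyltransferase gene gene_Zm00001d021168, named for barley UGT13248, which detoxifies a Fusarium toxin, had 1.94, 1.69 and 2.03 FPKM and 18.4, 18.4 and 14.4 FPKM (log2 difference −3.11 ± 0.14 (SE), adjusted p = 0.000508). All 3 tested genes described as Horcolin, a mannose-binding lectin of barley, were higher in *zmnrt1.1b*, among them Zm00001d047252 with 13.7, 8.17 and 3.19 FPKM and 59.95, 63.5 and 40.7 FPKM and Zm00001d023516 with 0.221, 0.665 and 2.24 FPKM and 5.77, 6.44 and 14.7 FPKM.

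Of 76 tested pathogenesis-related proteins and chitinases, 7 were higher in *zmnrt1.1b* and 1 was higher in *zmnlp3.1*, against 2.23% and 0.531% of all genes. Zeamatin (gene_Zm00001d021901), an antifungal protein of maize, had 10.02, 7.77 and 22.9 FPKM in *zmnlp3.1* and 67.9, 74.5 and 66.99 FPKM in *zmnrt1.1b* (log2 difference −2.51 ± 0.36 (SE), adjusted p = 0.0174). Endochitinase A (Zm00001d003190) had 67.7, 41.9 and 63.9 FPKM and 163, 214 and 192 FPKM, and chitinase 12 (Zm00001d036366) had 4.06, 5.596 and 6.74 FPKM and 19.8, 20.8 and 23.1 FPKM. Chitinases break fungal cell walls. The gene that was higher in *zmnlp3.1* was a thaumatin-like protein (gene_Zm00001d031155), with 7.28, 4.67 and 3.63 FPKM against 1.06, 0.644 and 1.29 FPKM. The summed level of the pathogen response markers was 2467 to 3058 FPKM in *zmnlp3.1*, 3192 to 3694 FPKM in *zmnrt1.1b* and 2454 to 2928 FPKM in WT under KCl, and their part in the other defence genes was not tested. 

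Class III peroxidases and NADPH oxidases form and use hydrogen peroxide at the wall. Of 110 genes 10 were higher in *zmnrt1.1b* and 2 higher in *zmnlp3.1* (median −0.43), against 2.23% and 0.531% of all genes. Peroxidase 54 (gene_Zm00001d014341) had 15.9, 11.6 and 8.46 FPKM in *zmnlp3.1* and 59.01, 63.1 and 45.7 FPKM in *zmnrt1.1b* (log2 difference −2.24 ± 0.24 (SE), adjusted p = 0.00814). The respiratory burst oxidase Zm00001d023859 had 15.8, 13.8 and 15.3 FPKM and 42.3, 43.8 and 26.9 FPKM. Catalase isozyme 2 (gene_Zm00001d027511), which removes hydrogen peroxide, was also lower in *zmnlp3.1*, at 1.86, 0.862 and 0.263 FPKM against 8.46, 8.41 and 7.15 FPKM. Under KNO3 the peroxidase list was called the other way more often, with 9 genes higher in *zmnlp3.1* and 4 higher in *zmnrt1.1b*, a difference in counts that was not tested.

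Glutathione S-transferases conjugate toxins and oxidised lipids. Of 54 genes 5 were higher in *zmnrt1.1b* and 1 was higher in *zmnlp3.1*, against 2.23% and 0.531% of all genes. The abundant gene_Zm00001d043344 (glutathione S-transferase 4) had 59.3, 47.5 and 27.8 FPKM in *zmnlp3.1* and 147, 144 and 115 FPKM in *zmnrt1.1b* (log2 difference −1.65 ± 0.27 (SE), adjusted p = 0.0229), and gene_Zm00001d042096 had 65.96, 42.3 and 77.2 FPKM and 153, 164 and 162 FPKM. Another gene of that description on the same chromosome, gene_Zm00001d042104, was higher in *zmnlp3.1*, at 9.15, 5.86 and 2.59 FPKM against 0.921, 0.7599 and 0.4101 FPKM. Under KNO3 11 of 51 were higher in *zmnrt1.1b*. The difference of U17 (Zm00001d027557), for example, was −1.40 under KCl and −2.23 under KNO3.

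Among hormone lists other than cytokinin, the calls were few and mostly towards *zmnrt1.1b*, as were 80.8% of all genes called. The shares of all genes tested were 2.23% towards *zmnrt1.1b* and 0.531% towards *zmnlp3.1*. For jasmonate and wounding 5 of 68 genes were higher in *zmnrt1.1b*, 3 of them described as 12-oxophytodienoate reductase 1, a family of which some members act in jasmonate synthesis. The most abundant of these, gene_Zm00001d037182, had 7.78, 5.29 and 4.63 FPKM in *zmnlp3.1* and 13.9, 14.96 and 14.7 FPKM in *zmnrt1.1b*. The list's median was −0.28 under KCl and 0.30 under KNO3, where 6 genes were higher in *zmnlp3.1* and 1 was higher in *zmnrt1.1b*. For ethylene 6 of 131 genes were higher in *zmnrt1.1b* and 1 was higher in *zmnlp3.1*, and the response factor 1 gene gene_Zm00001d027924 had 29.7, 17.3 and 29.6 FPKM and 73.2, 66.3 and 47.8 FPKM. For auxin 5 of 124 genes were higher in *zmnrt1.1b*, among them the efflux carrier PIN3a (gene_Zm00001d044083), at 1.05, 0.604 and 1.33 FPKM and 3.05, 3.62 and 3.702 FPKM, and the repressor IAA9 (gene_Zm00001d018414), at 5.39, 4.25 and 4.82 FPKM and 11.5, 10.6 and 9.403 FPKM.

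Wall and phenolic genes were called mostly towards *zmnrt1.1b*, as were 80.8% of all genes called. Of all genes tested 2.23% were called that way and 0.531% the other way. Of 135 genes of wall loosening and cellulose synthesis 11 were higher in *zmnrt1.1b* and 1 was higher in *zmnlp3.1*. Expansin-B3 (Zm00001d029903), which loosens walls during growth, had 17.1, 16.6 and 6.18 FPKM in *zmnlp3.1* and 53.6, 56.96 and 38.95 FPKM in *zmnrt1.1b* (log2 difference −2.02 ± 0.39 (SE), adjusted p = 0.0331), and the second gene of that description, gene_Zm00001d047089, had 7.47, 6.45 and 2.54 FPKM and 19.1, 21.2 and 14.9 FPKM. For phenylpropanoids, lignin and flavonoids 9 of 148 were higher in *zmnrt1.1b* and 2 were higher in *zmnlp3.1*. Chalcone isomerase (gene_Zm00001d012972) had 2.98, 2.31 and 1.16 FPKM and 8.35, 8.44 and 7.35 FPKM. The genes of chalcone synthase, the enzyme before it in flavonoid synthesis, were called in both directions. Synthase C2 (gene_Zm00001d007403) was higher in *zmnlp3.1*, at 12.3, 5.11 and 7.78 FPKM against 1.66, 3.78 and 2.02 FPKM with an adjusted p of 0.0499. It kept its call in 0 of the fits that left out a library. The weakly expressed synthase WHP1 (Zm00001d052915) was higher in *zmnrt1.1b*, at 0.253, 0 and 0 FPKM against 1.32, 4.84 and 1.08 FPKM (log2 difference −3.73, adjusted p = 0.0419). 

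Carbohydrate genes were called in both directions, with 11 of 114 higher in *zmnrt1.1b* and 4 higher in *zmnlp3.1*, against 2.23% and 0.531% of all genes. The fructan-type enzyme sucrose:sucrose 1-fructosyltransferase (gene_Zm00001d014947) had 81.5, 83.8 and 44.7 FPKM in *zmnlp3.1* and 243, 297 and 208 FPKM in *zmnrt1.1b* (log2 difference −1.87 ± 0.26 (SE), adjusted p = 0.0166). A raffinose synthase family gene, Zm00001d019163 (probable galactinol-sucrose galactosyltransferase), had 40.8, 27.98 and 34.6 FPKM and 129, 120.3 and 105 FPKM (log2 difference −1.78 ± 0.16 (SE), adjusted p = 0.0049996). The trehalose phosphatase RA3 (gene_Zm00001d006913), known from maize ear branching, had 0.911, 0.531 and 1.16 FPKM and 4.11, 4.43 and 2.31 FPKM.

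Transport of other nutrients differed in single genes. For phosphate 3 of 65 genes were higher in *zmnrt1.1b*, where 2.23% of all genes were. Phosphate transporter 1-11 (gene_Zm00001d011498), whose rice relative serves uptake from mycorrhizal fungi, had 0.843, 0.814 and 0.478 FPKM in *zmnlp3.1* and 5.45, 6.23 and 7.97 FPKM in *zmnrt1.1b* (log2 difference −3.05 ± 0.26 (SE), adjusted p = 0.00454). The abundant phosphate transporter gene_Zm00001d032850 had 30.5, 27.9 and 16.1 FPKM and 98.5, 72.2 and 72.9 FPKM, and WT was close to *zmnrt1.1b*, at 89.99, 89.996 and 99.6 FPKM.

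Nicotianamine synthases make a chelator of iron and zinc, and their called genes split by class. Nicotianamine synthase 3 (gene_Zm00001d033496) had 40.3, 35.1 and 17.3 FPKM in *zmnlp3.1* and 106, 88.4 and 88.5 FPKM in *zmnrt1.1b*. The genes Zm00001d028887 and Zm00001d028888, both described as nicotianamine synthase 2, went the other way, with 3.89, 4.23 and 2.78 FPKM against 0.687, 0.571 and 0.636 FPKM for the first and 2.003, 3.33 and 1.51 FPKM against 0.281, 0.571 and 0.318 FPKM for the second. These 2 lie close together on chromosome 1 and may share reads. Potassium transporter 5 (gene_Zm00001d042244) had 11.3, 11.3 and 7.95 FPKM and 23.98, 23.7 and 28.04 FPKM. All 6 libraries received KCl, and the part of K+ in this difference was not tested. Among 31 aquaporins, which are water channels, PIP2-7 (Zm00001d022608) and PIP1-6 (Zm00001d020383) were higher in *zmnlp3.1* and NIP1-3 (Zm00001d037733) was higher in *zmnrt1.1b*. PIP1-6 had 5.93, 4.83 and 6.25 FPKM and 2.86, 1.91 and 2.58 FPKM. The remaining lists held few calls: towards *zmnrt1.1b* and *zmnlp3.1* there were 4 and 1 of 55 amino acid transport genes, 2 and 0 of 45 circadian clock genes, 2 and 0 of 22 diterpenoid and benzoxazinoid genes, and 1 and 0 of 61 Casparian strip, suberin and wax genes, of 25 glutaredoxins and of 20 fermentation genes. Over all genes tested the shares in these directions were 2.23% and 0.531%. By description, the 4 called amino acid transport genes that the naming rule chose were WAT1-related proteins. Both called clock genes were B-box proteins, and the called fermentation gene was sucrose synthase 4.

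Of 281 tested cytosolic ribosomal proteins, 259 were above 0 (median 0.24), and of 102 genes of histones and cell division, 84 were above 0 (median 0.40), whereas 50.2% of all genes were below 0. One ribosomal gene, Zm00001d045775 (ribosomal protein S4), was called. In the KNO3 libraries the medians were −0.03 and 0.08. The summed dividing root tip markers were 5181 to 6110 FPKM in *zmnlp3.1*, 4195 to 5401 FPKM in *zmnrt1.1b* and 6000 to 7451 FPKM in WT under KCl, so the mutants overlapped.

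In 9 lists no member was called by limma. At an unadjusted p below 0.05, higher in *zmnlp3.1* and higher in *zmnrt1.1b*, there were 45 and 1 of 102 genes of histones and cell division, 19 and 10 of 93 heat shock and chaperone genes, 2 and 18 of 62 cysteine protease and autophagy genes, 1 and 12 of 38 bZIP genes, 7 and 9 of 78 genes resembling resistance genes and 1 and 5 of 21 sulfate genes. The NLP genes (0 and 1 of 9), the BT domain proteins (0 and 1 of 3) and the single NIGT1-type repressor (0 and 0) completed these lists. On the recovered reads, limma-voom called 1 heat shock gene, 1 BT domain gene and 2 genes each of the cysteine protease and resistance lists, and none of the other 5 lists.

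The number of genes called in a list changed when single libraries were left out. Without *zmnrt1.1b* replicate 2 no list had more than 2 genes called towards *zmnrt1.1b*, and without its replicates 3 and 4 no list had more than 3 and 6. Without *zmnlp3.1* replicate 3 no list had more than 6, and without *zmnlp3.1* replicates 1 and 4 the most were 21, in the WRKY list and in the wall loosening and cellulose list, and 18, in the WRKY list.

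**Figure D3:**
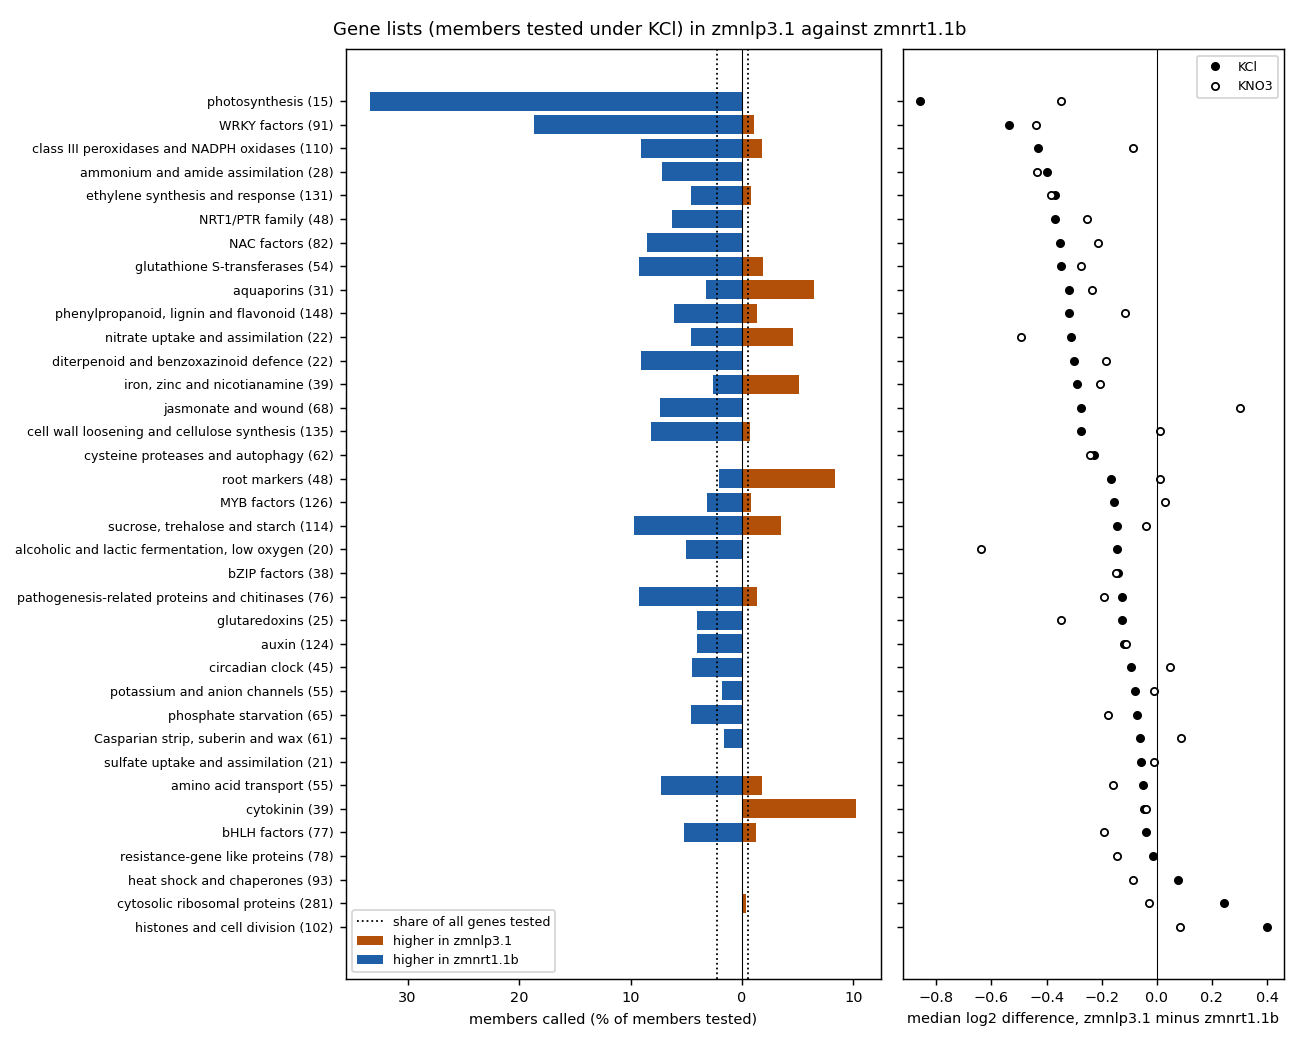
Left, members of each gene list called under KCl as a share of members tested (number in brackets), towards *zmnrt1.1b* (blue, leftwards) and *zmnlp3.1* (orange, rightwards), with the shares of all genes tested as dotted lines. Right, the median log2 difference of each list under KCl (filled) and KNO3 (open). Photosynthesis, at −0.86, and WRKY factors, at −0.54, have the lowest KCl medians, and cell division, at 0.40, has the highest. The photosynthesis median is of the members that passed the minimum FPKM, some of them through *zmnrt1.1b* alone.

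Some of the largest differences were in genes near 0 in every library of 1 mutant. With a limit of 0.5 FPKM in all 6 libraries of one mutant, both treatments included, and at least 2 FPKM in all 6 of the other, 8 genes were near 0 in *zmnrt1.1b* and 2 in *zmnlp3.1*. All 10 were called under KCl, which these limits largely set in advance, as they include the KCl libraries. In *zmnrt1.1b* they included 2 pairs of neighbours. Zm00001d021149, described as the RNA-binding protein RBP47 (chromosome 7, bases 144128263 to 144129613 of B73 RefGen_v4), had 19.4, 22.5 and 17.3 FPKM in *zmnlp3.1* and 0, 0 and 0.115 FPKM in *zmnrt1.1b*, and Zm00001d021150 next to it, which has no description, had 7.799, 8.52 and 7.18 FPKM and 0.0288, 0 and 0.0293 FPKM. On chromosome 9, Zm00001d045629 had 12.2, 10.2 and 9.47 FPKM in *zmnlp3.1* and no read in any *zmnrt1.1b* library, which with 3 reads per library as the floor is at least 150.0-fold lower. Zm00001d045631, in the same stretch, had 19.3, 16.6 and 19.6 FPKM and was likewise at 0 under KCl, at least 138-fold lower.

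In the other direction, Zm00001d008211 (chromosome 8, bases 1299092 to 1300668 of B73 RefGen_v4) had 0, 0.212 and 0 FPKM in *zmnlp3.1* and 38.7, 34.8 and 40.1 FPKM in *zmnrt1.1b*. A newly assembled gene on chromosome 5 (bases 57319055 to 57320280 of B73 RefGen_v4) was just past the limit in 1 *zmnlp3.1* library, with 0.0984, 0.692 and 0 FPKM in *zmnlp3.1* and 17.5, 17.1 and 16.3 FPKM in *zmnrt1.1b* (log2 difference −6.09 ± 0.68 (SE), adjusted p = 0.00941). The neighbour of Zm00001d008211, gene_Zm00001d008210, a germin-like protein of the wall, was lower but not absent in *zmnlp3.1*, at 12.6, 8.604 and 7.03 FPKM against 52.6, 52.7 and 47.01 FPKM (log2 difference −2.46 ± 0.20 (SE), adjusted p = 0.00454). WT expressed Zm00001d008211, Zm00001d045629 and Zm00001d045631 in all its libraries, with at least 21.3, 6.13 and 12.7 FPKM. A newly assembled gene on chromosome 2 (bases 215193367 to 215194371 of B73 RefGen_v4) was at 0 in all 3 WT libraries under KCl, and under KNO3 1 WT library (replicate 1) had 8.49 FPKM and the others were under 0.5 FPKM. The same library was the highest WT library under KNO3 for Zm00001d021149, Zm00001d023656 and the newly assembled genes on chromosomes 1 and 9 that were near 0 in *zmnrt1.1b*. Differences of sequence between the plants and differences of expression cannot be told apart in these values.

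**Figure D4:**
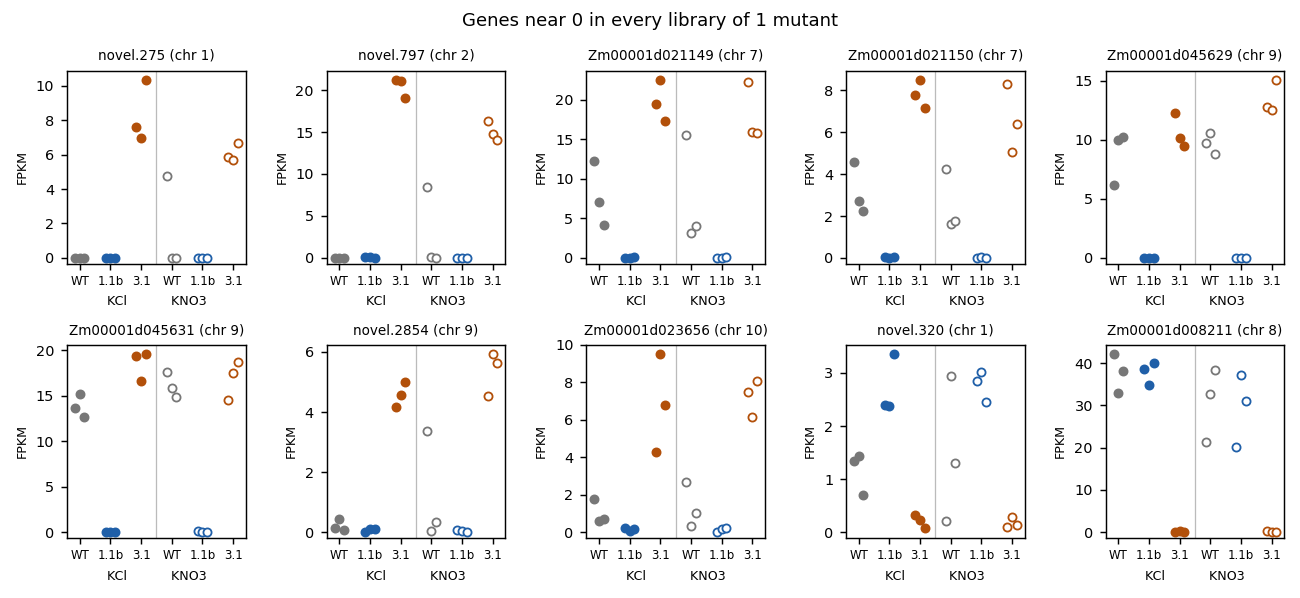
FPKM (vertical axes) of the 10 genes near 0 in every library of 1 mutant, in WT (grey), *zmnrt1.1b* (blue) and *zmnlp3.1* (orange) under KCl (filled) and KNO3 (open). The first 8 panels are near 0 in *zmnrt1.1b* and the last 2 in *zmnlp3.1*, and WT libraries under KNO3 differ among themselves for the newly assembled genes on chromosomes 1, 2 and 9.

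The KNO3 libraries of the same genotypes are separate samples that the KCl calls did not use, and 3.5% of the genes tested in them were called in either direction. Of the 128 genes higher in *zmnlp3.1* under KCl, 110 were tested under KNO3, 96 had the same sign (87.3%) and 42 were called the same way (38.2%), where 0.973% of all genes were called higher in *zmnlp3.1*. Of the 538 genes higher in *zmnrt1.1b*, 511 were tested, 424 had the same sign (83.0%) and 155 were called the same way (30.3%), where 2.53% of all genes were called that way. The sign was the same in 68.2% of all genes tested in both. The medians were 1.04 and −0.74 under KNO3. The counts of 42 and 155 fell to 25 and 69 without *zmnlp3.1* replicate 4 of the KNO3 libraries and to 26 and 51 without *zmnrt1.1b* replicate 5, and the second fell to 99 without *zmnrt1.1b* replicate 2.

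A test of the difference between the treatments asks in which of these genes the mutants differed unequally under KCl and KNO3. It passed for 6 of the 128 and 52 of the 538, where 0.75% of all genes passed. The test includes the KCl libraries that chose these genes, so a share above that of all genes is partly set by the choice. Under KNO3 the difference had the opposite sign in all 6 and in 42 of the 52, and the same sign and a smaller size in 9 of the 52. In 2 of the 6 and 3 of the 52 the opposite difference under KNO3 was the larger in size. Aquaporin PIP1-6 (Zm00001d020383), for example, was at 1.19 under KCl and −1.84 under KNO3 (limma adjusted p = 0.0227). HY5, reductase A, HV90, 2 chlorophyll a-b binding proteins and chitinase 12 (Zm00001d036366) were among the 52. Chitinase 12 had 13.3, 15.5 and 14.9 FPKM in *zmnlp3.1* and 13.9, 19.03 and 14.7 FPKM in *zmnrt1.1b* under KNO3. The genes were chosen for a large difference under KCl, so a smaller or opposite value in other libraries is partly set by that choice. Genes with like differences under both treatments included zeamatin (gene_Zm00001d021901), at −2.51 under KCl and −2.69 under KNO3, germin-like gene_Zm00001d008210, at −2.46 and −2.27, and alpha-terpineol synthase (Zm00001d035682), at 2.19 and 2.59.

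**Figure D5:**
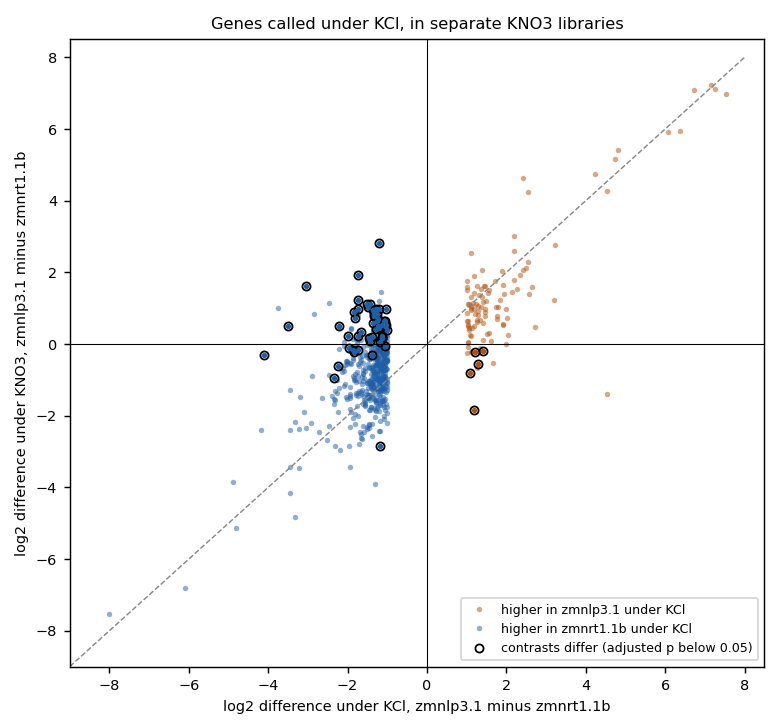
Log2 difference, *zmnlp3.1* minus *zmnrt1.1b*, under KCl (horizontal) and under KNO3 (vertical) for the genes called under KCl and tested in both, higher in *zmnlp3.1* (orange) or *zmnrt1.1b* (blue), with equality as a dashed line. Rings mark genes whose contrasts differed between the treatments, most of which lie near or above 0 under KNO3 among the genes higher in *zmnrt1.1b*.

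Genes that NO3- moves in WT were then described in the starved mutants. KNO3 raised 775 genes (3.2%) and lowered 736 (3.04%) in WT, by the same rule within the WT libraries. Of the raised genes 635 were tested here, and 7 were higher in *zmnlp3.1* and 56 in *zmnrt1.1b*, with a median of −0.39. Of the lowered genes 715 were tested, and 10 were higher in *zmnlp3.1* and 67 in *zmnrt1.1b*, with a median of −0.44. Over all genes tested 0.531% and 2.23% were called in these directions. Both lists had more differences below 0, 73.1% and 75.9%, than all genes, 50.2%, so the sign was the same for genes that NO3- raised and for those it lowered.

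The level of WT under KCl, which the calls did not use, places each gene. For the 538 genes higher in *zmnrt1.1b*, the WT mean was between the mutants in 394, above both in 85 and below both in 59, and it was nearer to *zmnrt1.1b* in 306 and to *zmnlp3.1* in 232. For the 128 genes higher in *zmnlp3.1* it was between in 88, above in 19 and below in 21, and nearer to *zmnlp3.1* in 72. The genes were chosen because the mutants lay far apart, so a WT mean between them is partly set by that choice. No share over all genes is given beside these counts.

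The 51 genes called in each fit that left out a library were 34 higher in *zmnrt1.1b* and 17 higher in *zmnlp3.1*, and 25 and 6 of these had a description. Besides 9 of the 10 genes near 0 in 1 mutant they held ALD1 (Zm00001d028165), with a difference of −3.60 to −3.35 over the 6 fits, phosphate transporter 1-11 (gene_Zm00001d011498), with −3.18 to −2.82, and HV90 (Zm00001d007827), with −3.31 to −2.78. A second early light-inducible gene, Zm00001d018940, had 0.117, 0.176 and 0.108 FPKM in *zmnlp3.1* and 3.11, 3.53 and 5.34 FPKM in *zmnrt1.1b* and differed by −4.26 to −3.88. LOB domain-containing protein 41 (gene_Zm00001d029506), a factor of a plant-specific family, had 16.5, 15.1 and 12.5 FPKM and 59.2, 61.9 and 42.6 FPKM. The kiwellin gene Zm00001d013945 had 23.9, 15.3 and 20.5 FPKM and 67.4, 86.4 and 71.9 FPKM, and the most abundant of the 51, Zm00001d003712, has no description and had 183, 145 and 142 FPKM and 676, 548 and 464 FPKM. Towards *zmnlp3.1* the described genes were RBP47, Zm00001d040534, alpha-terpineol synthase (Zm00001d035682), nicotianamine synthase 2 (Zm00001d028887), a salt stress-induced protein (Zm00001d035394) and REDUCED WALL ACETYLATION 4 (Zm00001d002113). Alpha-terpineol synthase, which makes a monoterpene, had 11.97, 13.9 and 17.1 FPKM in *zmnlp3.1* and 3.72, 2.79 and 2.65 FPKM in *zmnrt1.1b* (log2 difference 2.19 ± 0.18 (SE), adjusted p = 0.00454), and WT, at 18.7, 18.9 and 10.6 FPKM, lay with *zmnlp3.1*. The salt stress-induced gene had 14.6, 15.4 and 18.1 FPKM and 3.13, 3.05 and 2.39 FPKM (log2 difference 2.45 ± 0.15 (SE), adjusted p = 0.00122), and WT was lower than both, at 0, 0.512 and 0 FPKM. Genes named in this paragraph that the naming rule did not choose were picked after their values were seen.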

How the data were processed

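Total RNA of maize roots was purified for poly-A mRNA and sequenced by the authors, and per the labels the reads were processed with fastp, HISAT2 (v2.0.5) and StringTie (v1.3.3b). The coordinates are those of B73 RefGen_v4. The authors deposited 1 table of FPKM values for 47334 genes, in which the scaling between libraries is not given in the sources used here. All columns of values were mapped to samples by name.

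FPKM multiplied by gene length gave whole multiples of 1 read in each library (100% of values within 0.05 of a whole number), which gave the depth. Floors in reads cover counting error only, whereas each SE comes from the limma fit and reflects the spread between libraries. A gene was tested where 3 or more of the 6 libraries had 1 FPKM or more, so a weak gene could pass through 1 mutant alone. The test was limma (v3.58.1; R v4.3.3) on log2(FPKM + 0.1), with a variance trend, 2-sided p-values and Benjamini-Hochberg adjustment over all genes tested. Calls needed an adjusted p below 0.05 and an absolute log2 difference above 1. The KNO3 libraries and WT were fitted separately, and the difference between treatments was an interaction in the 12 mutant libraries. The labels do not say whether replicates were separate plants or cultures beyond calling them biological, so p-values measure the spread between these samples.

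Genes were named by a rule: the 12 largest described differences and the 2 largest without a description in each direction (no overlap, mean of at least 5 FPKM), every tested NRT1/PTR 6.3 and NLP gene, up to 4 called genes per list and the 8 most abundant NO3- genes. The 39 lists match words in the protein descriptions. The wording of 4 lists was corrected after the descriptions were at hand. The comparison, its lists and genes were chosen with earlier results of these data known. As alternatives, the pseudocount was set to 1 FPKM, the minimum to 0.1 FPKM or none, and the others were median-ratio rescaling, 12 or 18 libraries in the fit, the replicate number as a block, voom on recovered reads and leaving out each library. The procedure was tested on simulated data. Of 50 genes changed by each log2 size of 1.5, 2, 3 and 4, it recovered 33, 43, 49 and 49. There were 11 false calls. Smaller changes, and changes in genes of few reads, were not simulated. Other software was Python (v3.11.15), pandas (v2.3.3) and matplotlib (v3.10.9). The authors' own comparisons were not in the table.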

Additional observations from a re-analysis of the deposited data

Results flagged for a closer look

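In 10 of the named genes the difference between the mutants was not the same under KCl and KNO3, by the interaction test over 12 libraries (adjusted p below 0.05). Values are the KCl difference minus the KNO3 difference on the log2(FPKM + 0.1) scale, each difference taken as *zmnlp3.1* minus *zmnrt1.1b*. Among light-responsive genes the values were −3.81 for HY5 (Zm00001d015743), −3.99 for protochlorophyllide reductase A (Zm00001d001820), −4.67 for early light-inducible HV90 (Zm00001d007827), −2.54 for the LHCII gene gene_Zm00001d021784 and −2.62 for chlorophyll a-b binding protein 1 (gene_Zm00001d021435). Among defence and wall genes they were −1.85 for chitinase 12 (Zm00001d036366) and −1.63 for peroxidase 54 (gene_Zm00001d014341). The factor MYB101 (Zm00001d027623) had −2.27. The values above 0 were 3.03 for aquaporin PIP1-6 (Zm00001d020383) and 1.84 for cytokinin dehydrogenase 3 (gene_Zm00001d032664). PIP1-6 was higher in *zmnrt1.1b* under KNO3, at −1.84 (limma adjusted p = 0.0227). Both treatments' libraries are different plants harvested after KCl or KNO3. As the genes were named for their KCl difference, a KNO3 difference that is smaller or of the other sign is partly set by that choice.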

How the results depend on the processing

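Among the processing settings, the count of genes higher in *zmnlp3.1* moved by over 1.5 times with 1 of them, to 209 with all 18 libraries in the fit (773 higher in *zmnrt1.1b*). It was 100 to 154 under the others, and the count higher in *zmnrt1.1b* was 427 to 660. With 1 library left out the counts ranged from 23 to 198 and from 38 to 764. The count of genes called again under KNO3 ranged from 25 to 47 and from 51 to 153 with a KNO3 library left out. With the replicate number as a block the counts were 132 and 427, of which 62 and 275 were also called without it. Deviations of libraries with the same number correlated at 0.043 and 0.231, and those with other numbers at −0.192 to 0.168. Only 2 numbers are shared, so they were not taken as pairs. Of 110 called genes named by the rule, 41 lost the call under the block, 22 without a minimum, 12 with a pseudocount of 1 FPKM, 9 and 6 with 12 and 18 libraries, 4 with voom, 3 with a minimum of 0.1 FPKM and 0 with median-ratio rescaling, and none changed direction. The cause was not tested. No gene that changed sign had been called. With a library left out, the log2 differences of NLP genes ran across 0 for Zm00001d027510 (−0.0874 to 0.0584), Zm00001d025757 (−0.11 to 0.0183), gene_Zm00001d039250 (−0.15 to 0.0695), Zm00001d003176 (−0.000213 to 0.18) and Zm00001d039266 (−0.0262 to 0.11), and those of NO3- genes for Zm00001d017095 (−0.70 to 0.21), gene_Zm00001d054060 (−1.29 to 0.18), Zm00001d018161 (−0.83 to 0.0472), Zm00001d011679 (−0.43 to 0.23) and Zm00001d040422 (−0.11 to 0.63). The ends above 0 of the first 4 NO3- genes came from leaving out *zmnlp3.1* replicate 4. With the block Zm00001d025757 was at 0.00838 and Zm00001d040422 at −0.019, and with voom Zm00001d027510 was at −0.000183. With 3 libraries per group and 4 residual degrees of freedom, genes of small difference or few reads are the least certain.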
